A study of Danio rerio with 6 samples.

Results

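The Hox, cdx, dlx, msx, evx and meis homeobox genes were examined in the caudal fin of zebrafish larvae that had been swim-trained or left untrained. Members were the probes whose RefSeq accession maps to a gene symbol that opens with one of these 6 family names followed by a digit or letter. Of 73 RefSeq symbols with such a name, 70 had at least 1 probe, out of 12900 named genes on the array, and these 70 genes were read by 167 probes. No probe was matched to hoxa10ap, hoxc10a or hoxc11b. The expression test covered the 60 members that passed the detection filter, among 15772 genes tested in all.

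All fish were wildtype zebrafish, and all fins were taken at 10 days post fertilization. Trained larvae swam in daily sessions of 3 h from 5 to 10 days post fertilization, and control larvae did not train. Each RNA sample was a pool of caudal fins from 15 larvae, and there were 2 pools per condition, C2 and C3 for control and T2 and T3 for trained. Trained and control RNA of the same pool number were hybridised together on Agilent arrays, pair 2 on 4 arrays (each dye orientation hybridised again as a technical repeat) and pair 3 on 2 arrays (1 per orientation). The arrays of 1 pair share their RNA, so the replicate is the pool pair (n = 2), and nothing in the labels ties pools of the same number to a common clutch. The p-values come from limma, which combines the spread between a gene's 2 pairs (1 residual degree of freedom) with the spread over all genes tested. A gene whose pairs disagree more than most thus gets a smaller SE than its own pairs give, and a gene whose pairs agree closely a larger one. These p-values reach no further than these pools. A change in a whole-fin pool may be fewer cells of a type or less RNA per cell, which cannot be told apart here.

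Hox genes encode transcription factors that sit in clusters, and their order along a cluster matches the order in which they are expressed along the body: low paralog numbers act in the hindbrain and anterior trunk, high numbers in the posterior trunk and tail. In zebrafish a symbol such as hoxc9a gives the cluster (HoxC, copy a) and the paralog group (9). Cdx factors activate posterior Hox genes in the tail, evx genes lie beside Hox clusters, and meis proteins are cofactors that bind DNA together with Hox proteins. Dlx and msx genes are not clustered with Hox genes, and are used in fin fold and fin ray tissue as well as in the head.

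The caudal fin label was checked against marker genes. Genes and1 and and2 encode proteins of the actinotrichia, the rods of the fin fold. Their probes read normalised log2 intensities of 13.17 to 13.55 and 14.02 to 15.00 over the 4 pools. Of 13 retina and lens markers on the array 11 were not above background, and of 20 markers of the brain in front of the hindbrain 12 were not, foxg1a, six3a and otx1 among them. Some head genes were read all the same: the cone opsin gene opn1sw1 at 9.58 to 10.62, emx3 at 9.02 to 10.12 and lhx9 at 9.25 to 9.91. Of gut, liver and pancreas markers 7 of 13 were above background, and of head cartilage markers 6 of 7, beside 71.7% of all named genes. Among the gut, liver and pancreas markers prss1 read 7.49 to 7.95 and the rest 6.17 to 6.75. The head cartilage list holds col2a1a, also listed as a notochord marker, and the member dlx2a. All 16 fast and slow muscle markers on the array were above background. So were 15 of 17 spinal cord, neuron and glia markers and 11 of 12 notochord and floor plate markers, again beside 71.7%. From which of these tissues the homeobox genes were read was not tested. Across channels and arrays 54.3% to 81.2% of probes were well above background, and precision is limited by how few pools and arrays there are. Scans were made on 1 day and on 2 slides, each of which held arrays of both pairs.

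Most of these homeobox genes were detected in the caudal fin pools, and the share was higher among posterior than anterior Hox groups. A gene was called detected when a probe was well above background on all 6 arrays in at least one of the control and trained channels. By that rule 60 of 70 members were detected, 85.7%, against 71.7% of all named genes. Of the Hox genes, 9 of 14 in groups 1 to 4 were detected (64.3%), 11 of 12 in groups 5 to 8 (91.7%) and 20 of 21 in groups 9 to 13 (95.2%). The same order held over probes, of which 50% passed in groups 1 to 4, 73.3% in groups 5 to 8 and 91.8% in groups 9 to 13. Over all members 71.3% of probes passed, against 64.7% of probes of all named genes. All 20 posterior genes passed in both channels, so their detection did not rest on one condition. No test was made of these shares, because detection also depends on how well each probe binds. The order over genes was lost when any 1 array sufficed, since every Hox gene with a probe then counted.

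**Figure D1:**
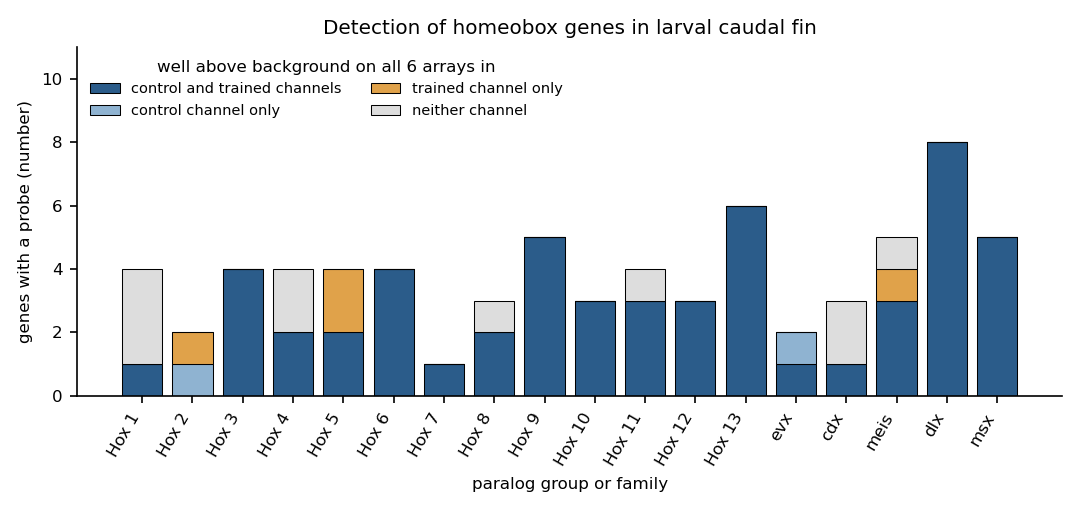
Number of genes with a probe (y axis) in each Hox paralog group or homeobox family (x axis), split by the channel in which a probe was well above background on all 6 arrays. Undetected genes were most frequent in Hox group 1, with 3 of 4, and in cdx, with 2 of 3, while Hox 9, 10, 12 and 13, dlx and msx were among the groups with none.

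The undetected Hox genes were mostly anterior, with 5 of the 7 in groups 1 to 4. In Hox group 1 only hoxb1b was detected, and its relatives hoxa1a, hoxb1a and hoxc1a, whose paralog group patterns the hindbrain, reached at most 2 arrays in either channel. In group 4, hoxb4a reached 2 arrays in the control and 3 in the trained channel, and none of the 4 hoxc4a probes passed 3. The group 2 genes sat at the limit: hoxa2b passed in the control channel with 5 arrays in the trained one, and hoxb2a passed in the trained channel with 4 in the control. In group 8, hoxb8b reached 5 control and 4 trained arrays, and in the posterior range only hoxa11a was missed, with 3 control and 4 trained arrays on its single probe.

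All dlx, msx and evx genes with a probe were detected. Of 5 meis genes 4 were (80%), and of 3 cdx genes 1, beside 71.7% of all named genes. Only 52.9% of meis probes passed, beside 64.7% of probes of all named genes. All 8 dlx genes and all 5 msx genes were detected in both channels. Of the caudal genes, cdx1a was detected and cdx1b and cdx4 were not, with at most 2 arrays for cdx1b and 1 for cdx4. Of the evx genes, evx1 passed in both channels and evx2 in the control channel, with 5 arrays in the trained one. The meis genes meis1a, meis1b and meis3 passed in both channels, meis2a in the trained channel alone, and meis2b missed with 5 arrays in each.

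The comparison of trained with control pools asked whether training altered these genes. No member passed the test over all genes (limma, Benjamini-Hochberg adjusted p under 0.05), and 0% of the 15772 tested genes did so in either direction. The lowest adjusted p, shared by many genes, was 0.751. At an unadjusted limma p under 0.05, 2 of 60 members were higher, hoxc9a and hoxc6a, against 2.17% of all genes, and 0 were lower, against 1.82%. The fits that treat arrays as replicates, or use another prior, called up to 60 genes in all but no member. Values below are log2 ratios of trained over control, and ± gives limma's moderated standard error (SE) of the mean of the 2 pairs. Where 4 values of pair 2 are listed, the first 2 had trained RNA in Cy5 and the last 2 in Cy3, the second of each being the repeat. Of the 2 values of pair 3 the first had trained RNA in Cy5. None of these values is a call. Their sizes depended on the background step: of the means of 35 named members, 31 were larger with Agilent's processed signals and 31 smaller with local backgrounds as deposited, and 19 and 31 of the 35 moved by over 1.5 times or changed sign.

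As a list the members had a median close to that of all genes tested, named or not. Their median log2 ratio was 0.06, beside 0.04 for all genes tested, with 0.04 in pair 2 and 0.11 in pair 3. Trained lay above control on all 6 arrays for 9 members (15%, against 11.8% of all genes) and below on all 6 for 0 (8.38% of all genes). Pair 3 carried the larger differences: 12 members were at least 1.5-fold higher there (20%, against 13.2%) and 3 at least 1.5-fold lower (5%, against 7.72%). In pair 2 no member reached 1.5-fold either way, where 0.317% of all genes were higher and 0.323% lower by that much. The sign agreed between pairs for 33 of 60 members (55%), beside 61.3% of all genes. Of the 15772 genes tested 9241 were named, and the others were accessions without a symbol, whereas every member is named. The shares of all genes tested that are given below beside families and lists come from that same mixed set. Over detected probes of named genes the median was -0.0026 in pair 2 and -0.047 in pair 3, beside 0.022 and 0.13 for member probes. Of member probes 40.3% were above 0 in both pairs and 21% below, beside 28.4% and 33.8% of named-gene probes. In pair 3, 17 of 119 member probes were at least 1.5-fold higher and 4 lower, beside 1671 and 2051 of 16298 named-gene probes. These differences were not tested.

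The HoxC cluster, copy a, held 4 of the 9 members that lay above control on all 6 arrays, more than any other cluster or family. Its 8 tested genes had a median log2 ratio of 0.29 (0.18 in pair 2 and 0.42 in pair 3), and the 4 were hoxc3a, hoxc5a, hoxc8a and hoxc9a. Since hoxc5a was detected through the trained channel alone, the count among members detected in both channels is 3 of 8. The 7 tested genes of the HoxD cluster had a median of -0.05, and none lay on one side on all arrays. Within HoxC copy a the genes were read in groups 3 to 9 and 11 to 13. Every detected probe of hoxc3a, hoxc5a, hoxc6a, hoxc8a and hoxc9a, 14 of 14, was above 0 in both pairs, beside 28.4% of detected probes of all named genes and 12 of 37 probes of groups 1 to 9 in the other Hox clusters. However, 4 of the 14 (both of hoxc5a, 1 of hoxc6a and 1 of hoxc8a) passed the filter through the trained channel alone, which favours a ratio above 0. Of the probes above background in both channels on all arrays, 10 of 10 were above 0 in both pairs, beside 28.1% of such probes of all named genes and 9 of 27 in groups 1 to 9 of the other Hox clusters. Of the 7 probes of hoxc11a, hoxc12a and hoxc13a 1 was. The difference was not tested, the grouping was made after the values were seen, and probes of a gene share a target. Under each of the other settings in which these 5 genes had a value (15, or 14 for hoxc5a) both pairs were above 0. All of these settings reuse the same arrays and some leave the values unchanged, so this count is no separate evidence.

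**Figure D2:**
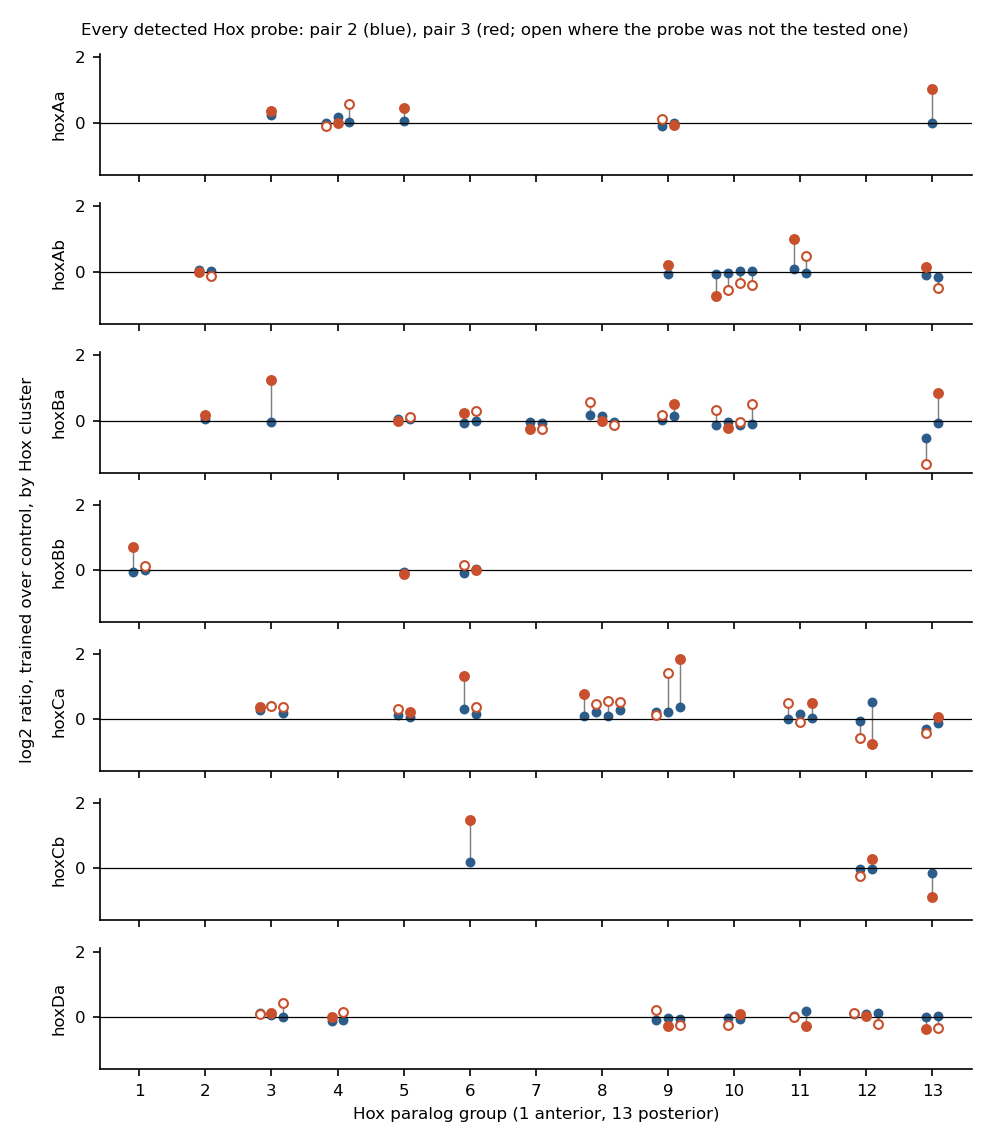
Log2 ratio of trained over control (y axis) for every detected Hox probe, by paralog group (x axis) and cluster (panels). Blue points are pair 2, red points are pair 3 (filled for the probe used in the test, open for others), and a line joins the 2 values of a probe. In HoxCa the 14 probes of groups 3 to 9, a range chosen after the values were seen, all lie above 0 in both pairs. Of these, 4 were detected through the trained channel alone, which favours a ratio above 0. HoxDa probes lie between -0.37 and 0.42 in pair 3.

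The gene hoxc9a, of the group that patterns the posterior trunk, had the largest ratio of all members. On the pair 2 arrays its log2 ratios were 0.26 and 0.26 with trained RNA in Cy5 and 0.41 and 0.47 with trained RNA in Cy3. On the pair 3 arrays they were 1.77 and 1.92. All 6 values were above 0, and those of pair 3 were far above those of pair 2. These are ratios of 1.27-fold for pair 2 and 3.60-fold for pair 3. Its mean was 1.098 ± 0.37 (SE), 0.688 to 1.19 over the 15 other processing settings, and it had the lowest unadjusted p of the members, with an adjusted p of 0.751 in limma. Probe intensities were 9.64 in C2, 9.98 in T2, 8.69 in C3 and 10.54 in T3, so the control pools differed by more than the pools of pair 2 did. Its 2 other probes gave 1.40 and 0.12 in pair 3 and 0.22 and 0.19 in pair 2.

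The paralogs hoxc6a and hoxc6b, on different copies of the cluster, gave values close to each other. For hoxc6a, pair 2 gave 0.061 and -0.10 with trained RNA in Cy5 and 0.53 and 0.66 in Cy3, and pair 3 gave 1.07 and 1.53. For hoxc6b, pair 2 gave -0.083 and -0.083 in Cy5 and 0.43 and 0.47 in Cy3, and pair 3 gave 1.29 and 1.64. In pair 2 both genes were above 0 mainly in one dye orientation, whereas pair 3 was high in both. Means were 0.79 ± 0.28 for hoxc6a and 0.82 ± 0.33 for hoxc6b, and over the other settings 0.40 to 1.53 and 0.41 to 1.23. The second hoxc6a probe, detected in the trained channel only, gave 0.14 in pair 2 and 0.36 in pair 3, and hoxc6b had 1 probe.

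The other HoxC genes of this range had smaller ratios. For hoxc3a, the 4 arrays of pair 2 ran from 0.22 to 0.30 and the 2 of pair 3 were 0.42 and 0.28, so both pairs gave about the same small ratio. Its 3 probes gave means of 0.27 to 0.39. For hoxc8a, pair 2 ran from 0.061 to 0.17, and pair 3 was 0.71 and 0.80, with means of 0.32 to 0.43 over its 4 probes. For hoxc5a, which was detected in the trained channel only and with 4 control arrays, the mean was 0.14. In groups 1 to 8 outside HoxC the largest ratio was that of hoxb3a, at -0.0033, -0.11, -0.042 and -0.034 in pair 2 and 1.19 and 1.31 in pair 3, so only pair 3 differed. Its mean was 0.60 ± 0.33, 0.26 to 1.02 over the other settings.

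**Figure D3:**
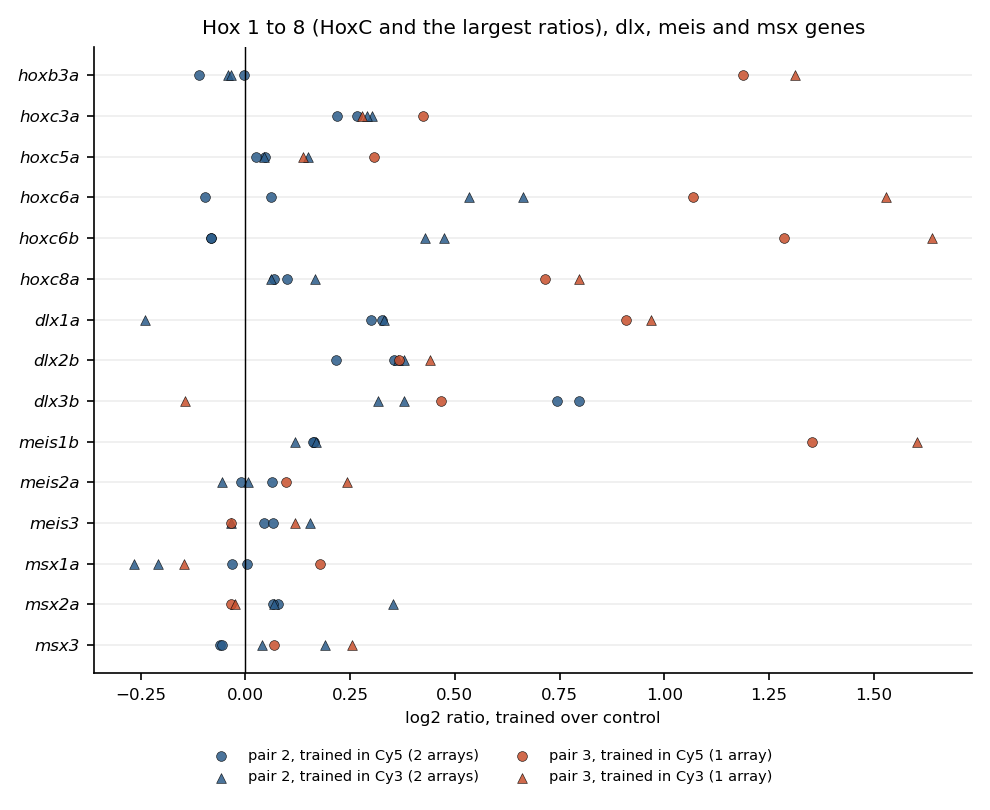
Log2 ratio of trained over control (x axis) on each of the 6 arrays for HoxC genes of groups 3 to 8, for hoxb3a and for the 3 dlx, meis and msx genes with the largest ratios. Colour gives the pool pair and the marker shape the dye of the trained RNA. The pair 3 points of hoxb3a, hoxc6a, hoxc6b and meis1b stand above 1, apart from those of pair 2.

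In group 9 the other genes stood nearer to 0. For hoxb9a the arrays gave 0.051, 0.054, 0.13 and 0.28 in pair 2 and 0.31 and 0.69 in pair 3, all above 0, with a mean of 0.31 ± 0.18 (0.14 to 0.62 over the other settings). For hoxa9b they gave -0.092, -0.21, -0.039 and 0.10, then 0.22 and 0.20. For hoxa9a they gave -0.17, -0.22, 0.073 and 0.28, then -0.086 and -0.090. Neither hoxa9 copy kept a sign across arrays. For hoxd9a the values were -0.0083, 0.029, -0.10 and -0.0013 in pair 2 and -0.17 and -0.36 in pair 3, so the pair 2 arrays were near 0 (3 of 4 below it) and both pair 3 arrays were lower.

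Groups 10 and 11, which pattern the lumbar and sacral spine in mice, went both ways. The gene hoxa10b gave -0.031, 0.0037, -0.066 and -0.23 in pair 2 and -0.75 and -0.72 in pair 3, with a mean of -0.41 ± 0.22 (-0.63 to -0.23 over the other settings). All 4 of its probes were below 0 in pair 3, at -0.74, -0.57, -0.36 and -0.40, so the lower ratio did not rest on 1 probe. Values of hoxb10a were 0.18, 0.021, -0.30 and -0.0057, then -0.078 and -0.37. Those of hoxd10a were -0.13, -0.0084, -0.11 and -0.011, then 0.0047 and 0.16. The pairs overlapped for hoxb10a, while for hoxd10a all pair 2 arrays were below 0 and both pair 3 arrays above it. The mean of hoxd10a, 0.0089, ran from -0.43 to 0.013 over the other settings.

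In group 11, hoxa11b gave -0.065, -0.057, 0.35 and 0.079 in pair 2 and 0.94 and 1.04 in pair 3, with a mean of 0.53 ± 0.26. It stood high in pair 3 beside its cluster neighbour hoxa10b, which stood low. For hoxc11a the values were -0.042, -0.082, 0.36 and -0.14, then 0.38 and 0.61. Its other probes gave 0.48 and -0.099 in pair 3, so they did not agree in sign. For hoxd11a the arrays gave 0.22, 0.18, 0.17 and 0.15, then -0.26 and -0.32, with opposite signs in the pairs and no overlap. Its second probe gave 0.019 in pair 2 and 0.0033 in pair 3, so the reversal was seen by 1 probe of 2.

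Group 12 contained the clearest reversal between pairs. The gene hoxc12a was above 0 on every pair 2 array, at 0.53, 0.61, 0.38 and 0.56, and below 0 on both pair 3 arrays, at -0.62 and -0.91. Its mean of -0.12 ± 0.33 describes neither pair. Its second probe gave -0.08 in pair 2 and -0.57 in pair 3, so the high values of pair 2 were seen by 1 probe of 2. For hoxc12b the arrays gave -0.11, -0.20, 0.13 and 0.026, then 0.16 and 0.41. For hoxd12a they gave 0.16, 0.20, -0.0054 and 0.049, then -0.062 and 0.10. Both of the latter lay between -0.20 and 0.41 on every array.

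Group 13 genes are the most posterior of the clusters, and in fish and mice are needed for the distal part of fins and limbs. All with a probe were detected, and over the tested probes their median log2 ratio was -0.01. With the mean of a gene's detected probes, hoxa13a was at 0.52. By that mean hoxa13b was at -0.16, hoxb13a at -0.27, hoxc13a at -0.20, hoxc13b at -0.51 and hoxd13a at -0.17. In pair 3, hoxa13a gave 0.82 and 1.27 and hoxb13a gave 0.66 and 1.04, while hoxc13b gave -0.80 and -0.96. In pair 2, hoxa13a gave -0.33 and -0.34 with trained RNA in Cy5 and 0.32 and 0.34 in Cy3, and hoxb13a gave -0.35 and -0.33, then 0.22 and 0.20. The sign of both thus followed the dye in pair 2, as for 14 of 60 members and 27.6% of all genes, and the pair mean cancels it. Their means were 0.52 ± 0.28 and 0.39 ± 0.26.

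Both detected probes of hoxb13a were read, and they disagreed. The brighter one, used in the test, gave -0.067 in pair 2, and the other gave -0.53. On all 6 arrays the other probe was below 0. In pair 3 the brighter one gave 0.85 and the other -1.34, each past 1.5-fold and in opposite directions, so no direction can be given for this gene. Among members with several detected probes this was 1 of 42, beside 2.27% of named genes with several.

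Of the remaining group 13 genes, hoxc13b, with 1 probe, was the only one whose tested probe was lower than control in both pairs, with 0.027, -0.053, -0.24 and -0.32 in pair 2 and a mean of -0.51 ± 0.23. For hoxd13a the values were -0.0067, -0.045, 0.018 and 0.035 in pair 2 and -0.38 and -0.36 in pair 3, and its second probe gave -0.33 in pair 3. The mean of hoxd13a, -0.19, ran from -0.67 to -0.084 over the other settings. Both hoxc13b and hoxd13a were thus lower mainly in pair 3. For hoxa13b they were -0.24, -0.30, 0.045 and 0.058, then 0.046 and 0.25. For hoxc13a they were -0.35, -0.26, 0.084 and -0.020, then -0.0047 and 0.13. Both of the last 2 genes had values on either side of 0 in pair 2. Their second probes were lower: that of hoxc13a was below 0 on all 6 arrays, at -0.31 in pair 2 and -0.43 in pair 3, and that of hoxa13b gave -0.16 and -0.51. With the mean of both probes, hoxa13b (-0.13 and -0.18) and hoxc13a (-0.22 and -0.18) were below 0 in both pairs. The mean of the 2 detected hoxb13a probes was also below 0 in both pairs (-0.30 and -0.25).

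**Figure D4:**
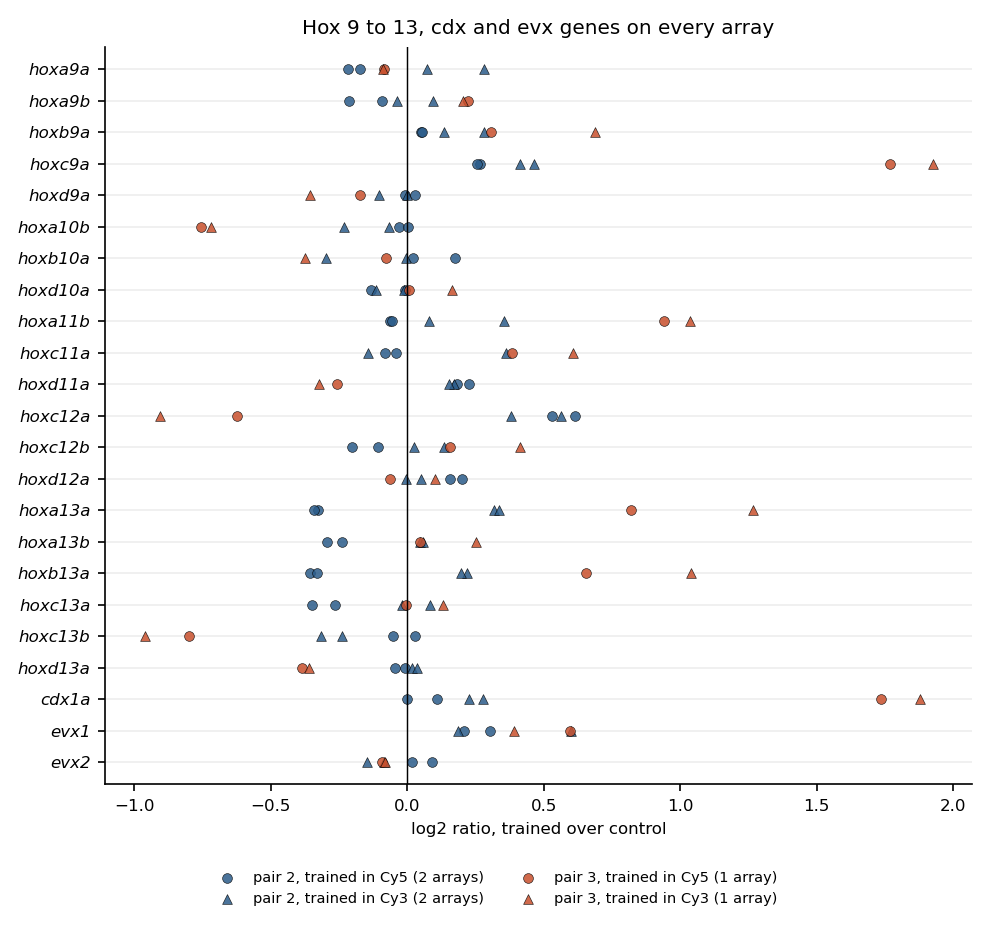
Log2 ratio of trained over control (x axis) on each of the 6 arrays for every tested gene of Hox groups 9 to 13 and for cdx1a, evx1 and evx2, ordered by paralog group. Pair 3 (red) ranges from -0.96 for hoxc13b to 1.92 for hoxc9a, and pair 2 (blue) ranges from -0.35 for hoxb13a to 0.61 for hoxc12a.

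The caudal gene cdx1a showed the same order of pools as hoxc9a. Its values were 0.11, -0.0026, 0.23 and 0.28 in pair 2 and 1.73 and 1.88 in pair 3, which is 1.11-fold and 3.5-fold, with a mean of 0.98 ± 0.40 (0.59 to 1.04 over the other settings). Intensities were 10.12 in C2, 10.27 in T2, 8.92 in C3 and 10.73 in T3, and C3 was again the lowest pool. That is not particular to these genes: C3 was lowest for 93.3% of all genes tested that were at least 1.5-fold higher in pair 3. The second detected cdx1a probe gave 0.019 in pair 2 and 0.61 in pair 3. That probe passed the filter through the trained channel alone, with 4 control arrays, which favours a ratio above 0. The gene evx1, needed for joints between fin ray segments in zebrafish, was above 0 on every array, at 0.30, 0.21, 0.18 and 0.60 in pair 2 and 0.60 and 0.39 in pair 3. Its mean was 0.41 ± 0.17, and its second probe gave 0.17. The mean was 0.76 with Agilent's processed signals, 0.75 with the deposited table and 0.29 as the mean of its probes. For evx2, detected in the control channel only, values were 0.016, 0.089, -0.085 and -0.15, then -0.094 and -0.080.

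Of the meis cofactors, meis1b stood out with 0.16, 0.16, 0.12 and 0.17 in pair 2 and 1.35 and 1.60 in pair 3. All 6 arrays were above 0, its mean was 0.82 ± 0.34 (0.49 to 0.90 over the other settings), and its 2 other probes gave 0.83 and 0.59 in pair 3. Pools read 10.28 in C2, 10.43 in T2, 9.29 in C3 and 10.77 in T3. For meis2a, detected in the trained channel only, the values were -0.012, 0.063, -0.056 and 0.0052, then 0.10 and 0.24. For meis3 they were 0.045, 0.065, -0.035 and 0.15, then -0.035 and 0.12, and both genes lay near 0. The tested probe of meis1a had a mean of 0.033, and 1 of its 4 probes gave 1.16 in pair 3.

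Among the dlx genes, which pattern fin fold epidermis, branchial arches and forebrain, all 8 were above 0 in pair 2 (7 with processed signals, the deposited table or the mean of probes) beside 56.6% of all genes, and 3 of 8 in pair 3 (2 with median centring), beside 55.3%. For dlx4b and dlx5a the sign in pair 2 followed the dye. The gene dlx2b was the steadiest, at 0.35, 0.22, 0.37 and 0.38 in pair 2 and 0.37 and 0.44 in pair 3, with a mean of 0.37 ± 0.17. For dlx1a the values were 0.33, 0.30, 0.33 and -0.24, then 0.91 and 0.97, and the single negative one came from a repeat array. For dlx3b they were 0.74, 0.80, 0.32 and 0.38, then 0.47 and -0.14, so its pair 2 ratio exceeded that of pair 3. The other 5 had means of -0.10 to 0.02, with dlx2a at 0.30 in pair 2 and -0.50 in pair 3. The genes dlx5a and dlx6a, both expressed in fin fold epidermis, had means of -0.09 each.

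The msx genes, expressed in fin fold and in regenerating fin mesenchyme, had the narrowest range among families with more than 1 tested gene, with means of -0.05 to 0.09 and pair 3 values of -0.20 to 0.21 over the tested probes. The 3 with the means farthest from 0 in either direction were msx3, msx2a and msx1a. For msx3 the arrays gave -0.062, -0.057, 0.19 and 0.039, then 0.068 and 0.26. For msx2a they gave 0.078, 0.066, 0.067 and 0.35, then -0.035 and -0.025, and for msx1a 0.0039, -0.032, -0.27 and -0.21, then 0.18 and -0.15. None of the 3 kept a sign on all arrays.

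The pool intensities show where the pair 3 differences lay. For the 12 members at least 1.5-fold higher in pair 3, C3 was the lowest of the 4 pools in 12 and T3 the highest in 11. Of the 2087 genes tested that passed the same fold, C3 was the lowest in 1947 (93.3%) and T3 the highest in 1753. Over these 12 genes the median of C3 minus C2 was -0.82 and that of T3 minus T2 was 0.33, against -0.55 and 0.32 for the 2087 genes that passed the same fold. Picking genes by their pair 3 ratio favours a low C3 and a high T3, so these figures are a description. The 3 members at least 1.5-fold lower in pair 3, hoxa10b, hoxc12a and hoxc13b, had the lowest intensity in T3 and the highest in C3. Of the 1218 genes tested that were lower by that fold, T3 was the lowest in 855 and C3 the highest in 1093.

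**Figure D5:**
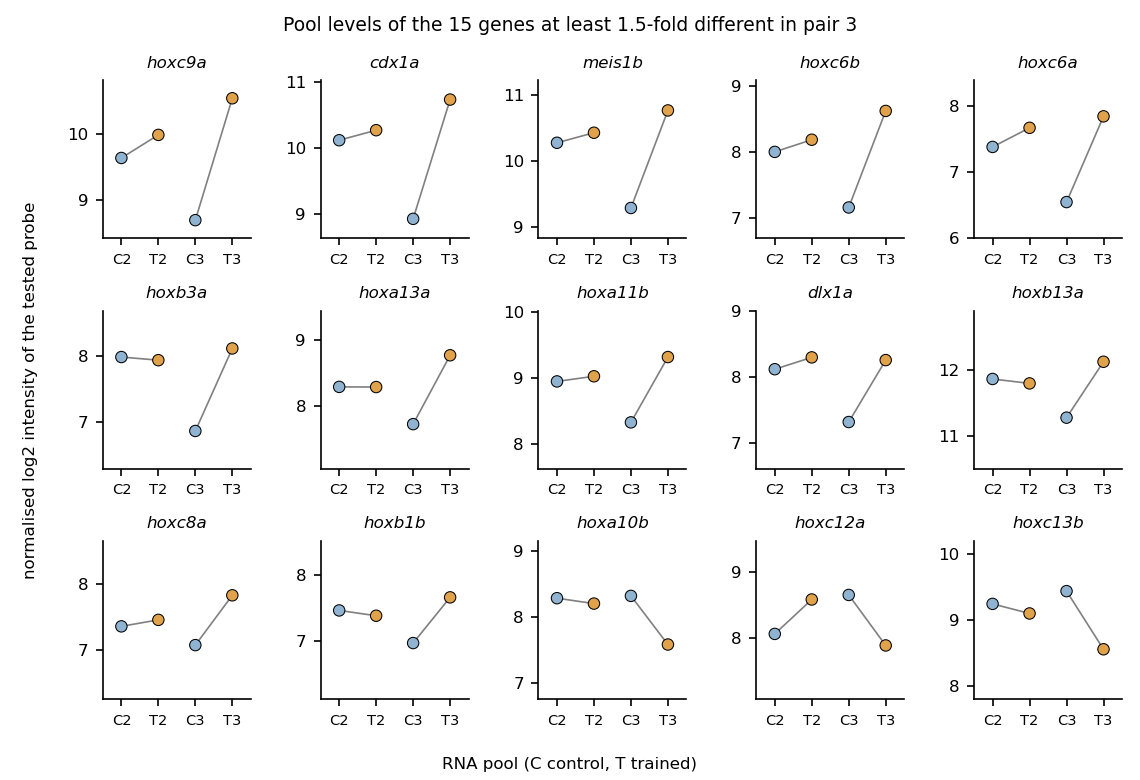
Normalised log2 intensity (y axis, the same span in each panel) of the tested probe in each control (C) and trained (T) pool (x axis) for the 15 members at least 1.5-fold different in pair 3. Lines join pools hybridised together. In the first 12 panels C3 is the lowest point, and in the last 3 T3 is. The same holds for 1947 of the 2087 genes tested with such a higher ratio and 855 of the 1218 with such a lower one.

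Markers of other tissues moved between the same pools. The summed log2 intensity of 11 tested notochord and floor plate markers was 15.76 in C2, 15.53 in T2, 15.01 in C3 and 16.05 in T3, and 6 of 11 were above 0 in pair 3. Most of that sum is the collagen gene col2a1a, whose log2 ratio was 1.36 in pair 3 and -0.28 in pair 2. The undetected marker was noto. For 6 head cartilage markers, which also hold col2a1a and the member dlx2a, the sums were 15.71, 15.42, 15.02 and 16.05, and hand2 was not above background. For 15 spinal cord, neuron and glia markers they were 12.68, 12.62, 12.24 and 12, with 8 of 15 above 0 in pair 3, so C3 was lower than C2 and T3 lower still. The brightest of these markers was gfap, at 10.97 in C3 and 10.23 in T3, and the step from C3 to T3 in the sum rests on that gene. Here gad1b and slc17a6b were not above background. The 8 fin bone markers summed to 13.76, 13.91, 13.71 and 14.05, with 6 of 8 above 0 in pair 3, and the 11 epidermal ones to 17.99, 18.18, 17.84 and 18.46, with 8 of 11. The 8 tested brain markers, emx3 among them, summed to 11.34, 11.38, 10.78 and 11.43, so C3 was again the lowest pool. Beside these counts, 55.3% of all genes tested were above 0 in pair 3.

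The marker lists with the lowest medians were those of pigment cells and of blood and endothelium. All 3 tested pigment markers (pmela, tyrp1b and gch2, with ltk, mitfa, pnp4a and tyr not above background) were lower at an unadjusted limma p under 0.05, their median log2 ratio was -1.11 for pair 2 and -1.71 for pair 3, and their sums were 12.37 in C2, 11.27 in T2, 12.66 in C3 and 11.33 in T3. The 6 tested blood and endothelium markers, a list in which cdh5, hbba1, kdrl, lyz and mpx were not above background, summed to 12.24, 12.29, 12.66 and 11.17, with 1 of 6 above 0 in pair 3 and 4 of 6 in pair 2. The 16 muscle markers summed to 18.93, 19.31, 18.81 and 19.12, with 13 of 16 above 0 in pair 2 and 7 of 16 in pair 3, and at that p 3 were higher and 1 was lower. At that p 2.17% of all genes tested were higher and 1.82% lower, and 56.6% were above 0 in pair 2 and 55.3% in pair 3. The part of any of these tissues in the Hox, cdx and meis ratios was not tested.

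Probes of the same gene often differed in sign. Of 42 members with several detected probes, 17 had probes with means of opposite sign (40.5%, beside 39% of named genes with several), most of them close to 0. In pair 3 alone it was 21 of 42 (50%, beside 40.3%). In Hox groups 9 to 13 the lowest and highest probe means were -0.94 and 0.39 for hoxb13a, -0.33 and 0.020 for hoxa13b, -0.16 and 0.12 for hoxc12b, and -0.15 and 0.0089 for hoxd10a. The 4 probes of hoxb10a gave -0.13, -0.080, 0.11 and 0.20, the 3 of hoxd9a -0.15, -0.14 and 0.054, and the 3 of hoxd12a -0.049, 0.060 and 0.11. Pairs of probes gave -0.054 and 0.011 for hoxd11a and -0.049 and 0.0012 for hoxa9a. Apart from those of hoxb13a, all of these means lay between -0.33 and 0.20.

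In the anterior groups, the 3 probes of hoxb8a gave means of -0.073, 0.065 and 0.37 and those of hoxa4a -0.061, 0.087 and 0.30. The 2 probes gave -0.060 and 0.018 for hoxa2b and -0.069 and 0.029 for hoxd4a. In the other families, meis1a gave -0.021, 0.033, 0.11 and 0.56, msx1b -0.047 and 0.15, msx3 -0.058 and 0.095, and dlx4b -0.023 and 0.0095. Probe sequences were not used here, so binding of a probe to a related homeobox gene was not checked.

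Genes that act with the Hox genes were read from 4 lists, and none of them passed the test. For comparison, 55.3% of all genes tested were above 0 in pair 3 and 56.6% in pair 2. At an unadjusted limma p under 0.05, 2.17% of all genes were higher and 1.82% lower. Of 8 tested cofactors of the PBC and other TALE classes, 0 had an unadjusted limma p under 0.05, and their median was 0.06 (0.16 in pair 3). Here pbx1b had 0.60 ± 0.27 and pbx4 0.42 ± 0.19, while pbx2 had -0.37 ± 0.25. These are Hox partners, and pbx1b was 1.07 in pair 3 and 0.12 in pair 2.

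Of 18 retinoic acid and posterior body signal genes, 0 had an unadjusted p under 0.05, with a median of 0.07. The receptor gene rarga had -0.37 ± 0.17, the retinoic acid degrading enzyme gene cyp26b1 -0.42 ± 0.21 and the binding protein gene crabp1b -0.27 ± 0.17. All 3 means were below 0 in both pairs, but the sign of crabp1b followed the dye, at 0.014, 0.22 and 0.0014 on the 3 arrays with trained RNA in Cy5 and -0.61, -0.59 and -0.61 on the 3 with it in Cy3. Of the 18 genes 11 were above 0 in pair 3 and 6 in pair 2, among them another degrading enzyme gene, cyp26a1, at 0.28 and 0.23.

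Of 28 fin fold, limb and fin ray patterning genes the median was 0.14. The gene tbx2b, a T-box repressor, was higher at an unadjusted limma p of 0.047, with 0.50 ± 0.19, and 0 were lower at that level. The mesenchymal factor genes twist2 and twist3 had -0.46 ± 0.19 and -0.57 ± 0.25.

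Of 25 Polycomb and trithorax genes, whose products keep Hox clusters silent or active, the median was -0.12, with 9 of 25 above 0 in pair 3. The Polycomb gene cbx2 was lower at an unadjusted limma p of 0.0495, with -0.57 ± 0.22, and the histone-binding gene rbbp7 had -0.47 ± 0.23. The trithorax family methyltransferase gene kmt2a had 0.57 ± 0.31, with 1.16 in pair 3 and -0.019 in pair 2.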

How the data were processed

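Caudal fin RNA of zebrafish larvae was measured on 6 Agilent 2-colour arrays, grouped by the labels into 2 pool pairs. The authors' scan software was Agilent Feature Extraction 10.5.1.1, per the submitters' processing notes. Its deposited output gives, per the file headers, the intensity of each spot and its local background as pixel medians, a processed intensity and the log10 of red (Cy5) over green (Cy3). A value table deposited for the series holds the same log10 ratio, within 0.00415 for its 43553 probes, with column medians of 0, and was an alternative only.

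With R 4.3.3, limma 3.58.1 and data.table (version 1.17.8), median signals were corrected by normexp (offset 50), with local backgrounds over 10 median absolute deviations from the array median replaced by it, and normalised by loess. The offset compresses ratios of dim probes. Every ratio was signed as trained over control, then averaged within pool pairs over both dyes. Pool intensities are separate channels after Aquantile scaling between arrays, and levels of different probes are not compared. No spot was saturated (0).

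Of 43603 probes, 25173 were named with 12900 symbols through RefSeq accessions (the RefSeq annotation of GRCz12tu, no coordinates used). A gene is its brightest detected probe. limma tested the 2 pair values against 0, two-sided, adjusted over 15772 genes, and was tested on simulated data. Named genes are all tested members of Hox 9 to 13, cdx and evx, the 3 largest mean ratios of Hox 1 to 8 and of each other family, the 3 smallest p of each gene list and members with probes of opposite sign. Genes hoxc3a, hoxc5a, hoxc8a and others named beside them were added after their values were seen. Members and lists were chosen with earlier results of these data known.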

Additional observations from a re-analysis of the deposited data

How the results depend on the processing

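No member was called under any of 15 other settings, in which the lowest adjusted p of a member ran from 0.0832 to 0.895. There were 733 values of the 35 named members under these settings, single pairs, slides and dyes. Of these, 687 moved by less than the spread between the pairs and 46 by more. A value of 1 pair always lies within that spread of the mean, so it could not count among the 46. Settings with Aquantile, the trend and robust prior, no filter on dim probes or both channels left the named means they covered unchanged. Part of the 687 was thus fixed in advance, and the count is no measure of robustness. The sign of 27 of the 35 was kept under all 15. The exceptions were hoxa13b, hoxb10a, hoxb13a, hoxc12a, hoxc12b, hoxc13a, hoxd10a and hoxd11a. Over all genes the 0 calls in each direction became 3 higher and 6 lower when the pair was a random block, 27 and 33 with 6 arrays and the slide as a block, and 1 and 6 with an intensity trend and robust prior. The first 2 of these fits count arrays that share RNA. Members at an unadjusted limma p under 0.05 numbered 2 to 15 over these settings, beside 488 to 3189 of all genes tested. The 15 came with the pair as a random block, where 2446 of 15772 genes passed. With the slide as a block 13 members and 3189 genes passed. The gene hoxc9a was among the members in all settings except that without the filter on dim probes. The member median of 0.06 was 0.115 with processed signals and 0.117 with the deposited table, and 0.0432 to 0.108 when 1 pool pair was left out. The cause was not tested. Within slides it was 0.0503 and 0.0753. Median centring moved the median of all genes from 0.04 to -0.015 and that of members to 0.022. Counting a gene as detected on any 1 array raised Hox groups 1 to 4 from 9 to 14 and cdx from 1 to 3. All Hox genes with a probe counted under that rule, so the higher share of posterior genes depends on the 6-array rule. The share of all named genes under the looser rule is not given here. With the mean of the probes of a gene, hoxb13a fell below 0, to -0.27. A correction based on mean spot signals was not run, since those signals are not used here. Each value is a ratio within a pool pair, so the test is paired. With 4 pools from separate channels and no replicate block, 0 genes were called and the member median was 0.0621. Dim probes limit the anterior Hox genes and meis2a, evx2 and hoxc5a, which passed the background flag in 1 channel only.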

Other observations

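Pools of the same condition also differed in these genes. Among the 60 tested members, the intensity in control pool C3 was below that in C2 for 47 (78.3%), beside 55.9% of all genes tested, with a median difference of -0.27 on the log2 scale against -0.05. In the trained pools, T3 was above T2 for 21 members (35%), beside 49.2% of all genes, with medians of -0.07 and -0.01. Control pool C3 was the lowest of the 4 pools for 34 of the 60 (56.7%), beside 41% of all genes tested. These intensities come from separate channels scaled between arrays, and the pools are 2 per condition, so the differences are given as values only.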
